A study of Mus musculus with 48 samples.

Results

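Muscle-rich and muscle-poor tumour libraries were set apart by Ckm, the muscle form of creatine kinase, in RNA of whole mouse tumours grown under the skin. The libraries of each class were chosen by their Ckm level in CPM (counts per 1000000 counts of the library). In each of 4 groups the 4 libraries with the highest Ckm were called muscle-rich and the 4 with the lowest muscle-poor, which took 32 of 48 libraries, 16 in each class. Ckm defines the classes, so its class values are a description and nothing is read from its own call. The counts over all genes include it.

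The groups were AB1 Responder, AB1 Non-responder, Renca Responder and Renca Non-responder, with 12 libraries in each, all from female BALB/c mice aged 8 to 9 weeks. AB1 is a mesothelioma line and Renca a kidney cancer line. Each was injected under the skin, and the whole tumour was removed on day 8 for AB1 and on day 10 for Renca, before treatment. The treatment in every group was antibodies against CTLA4 and PD-L1, and the response is the one recorded later. The labels number the tumours within a group without naming mice or cages, so p-values measure the spread between these samples. Tumour line and day of removal cannot be told apart. In RNA of a whole tumour, fewer cells of a type and less RNA per cell cannot be told apart either.

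Library totals ran from 16441426 to 27838494 counts. Renal tubule genes summed to 215 to 481 CPM in Renca libraries and to 1.24 to 6.53 CPM in those of AB1. Mesothelial genes, with Msln not analysed here, summed to at most 8.41 CPM in any library, so these markers did not show the mesothelial label. AB1 Non-responder replicate 3 stood apart, with the highest Ckm, the highest hair and skin keratins and the lowest RNA 260/230 ratio (1.08). AB1 Non-responder replicate 2 stood apart in slow myosin.

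Skeletal muscle fibres contract when calcium released from the sarcoplasmic reticulum lets myosin heavy chains pull on actin filaments inside repeating units called sarcomeres. Fast fibres use the myosins Myh4, Myh1 and Myh2 and draw energy from creatine phosphate and glycogen, while slow fibres use Myh7. The genes of this programme are switched on by myogenic factors such as Myod1 and Myog, which bind E-box sequences, together with MEF2 proteins. Beneath mouse skin lies a thin sheet of such muscle, close to fat, nerves and hair follicles.

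To show the sequence that precedes genes of this programme, the 250 bases before the RefSeq start (GRCm38.p6) are given for Ckm itself (chr7:19410844-19411093, + strand), for the fast myosin Myh4 (chr11:67237562-67237811, + strand), for the glycogen phosphorylase Pygm (chr19:6384158-6384407, + strand) and for the sarcomere protein Klhl41 (chr2:69669870-69670119, + strand). Capitals mark matches to the E-box CAGCTG, to the second E-box that reads CAGGTG on either strand, to the MEF2 motif and to the CArG box of serum response factor, each searched on both strands.
Ckm: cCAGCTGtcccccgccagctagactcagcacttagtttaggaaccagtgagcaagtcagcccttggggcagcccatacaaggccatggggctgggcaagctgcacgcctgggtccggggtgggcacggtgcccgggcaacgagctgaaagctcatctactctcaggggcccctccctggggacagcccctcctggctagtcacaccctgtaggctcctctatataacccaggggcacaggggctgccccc
Myh4: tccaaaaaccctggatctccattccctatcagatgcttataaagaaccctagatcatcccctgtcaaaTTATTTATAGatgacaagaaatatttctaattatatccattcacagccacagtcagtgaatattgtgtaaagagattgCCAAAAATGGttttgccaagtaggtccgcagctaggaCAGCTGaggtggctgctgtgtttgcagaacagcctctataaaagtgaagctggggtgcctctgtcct
Pygm: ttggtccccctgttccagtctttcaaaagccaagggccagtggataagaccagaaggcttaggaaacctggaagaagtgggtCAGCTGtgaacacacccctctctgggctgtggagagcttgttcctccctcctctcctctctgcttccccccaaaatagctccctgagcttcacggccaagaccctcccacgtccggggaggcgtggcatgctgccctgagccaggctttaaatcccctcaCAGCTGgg
Klhl41: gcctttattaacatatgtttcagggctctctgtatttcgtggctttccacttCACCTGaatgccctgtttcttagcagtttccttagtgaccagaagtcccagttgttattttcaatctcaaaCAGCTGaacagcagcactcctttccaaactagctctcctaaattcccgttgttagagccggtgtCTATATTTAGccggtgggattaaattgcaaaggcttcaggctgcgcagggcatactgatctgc
The Ckm window held 1 CAGCTG and that of Pygm held 2. Myh4 held 1 CAGCTG, 1 MEF2 match and 1 CArG box, and Klhl41 held 1 of each E-box and 1 MEF2 match, with no overlap between matches in these windows. Of the 64 genes of the fibre, energy and junction lists that were higher in muscle-rich libraries, 45 had a promoter in the table. CAGCTG was in 22 of these 45 (48.9%), against 12.8% of 27025 promoters of the same length. CAGGTG was in 26.7% against 17.1%, the MEF2 motif in 22.2% against 3.01% and the CArG box in 6.67% against 1.4%. A match of letters is a description and not a binding site.

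Ckm spanned from 0.270 CPM in Renca Responder replicate 11, where 5 counts were read, to 298 CPM in AB1 Non-responder replicate 3. In AB1 non-responders the muscle-poor libraries had 0.980, 3.63, 31.8 and 39.2 CPM, and the muscle-rich ones 108, 147, 206 and 298 CPM. In AB1 responders the muscle-poor values were 4.88, 17.8, 22.6 and 32.5 CPM and the muscle-rich values 42.9, 51.5, 62.0 and 101 CPM. AB1 responders had the narrowest gap between the classes, and the lowest muscle-rich library of all was among them.

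In Renca non-responders the muscle-poor libraries had 3.83, 11.8, 18.0 and 22.6 CPM and the muscle-rich ones 75.4, 87.6, 88.5 and 112 CPM. In Renca responders the muscle-poor libraries had 0.270, 40.4, 40.9 and 42.7 CPM and the muscle-rich ones 127, 139, 146 and 184 CPM. Muscle-poor thus covered libraries nearly free of Ckm as well as libraries with clear levels of it. Just outside the classes, the next library above the muscle-poor set and the next below the muscle-rich set had 56.7 and 85.0 CPM in AB1 non-responders, 33.9 and 37.4 CPM in AB1 responders, 34.4 and 50.3 CPM in Renca non-responders, and 65.7 and 122 CPM in Renca responders. The highest muscle-poor Renca responder (42.7 CPM) lay just under the lowest muscle-rich AB1 responder (42.9 CPM), and the classes were compared within groups.

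**Figure D1:**
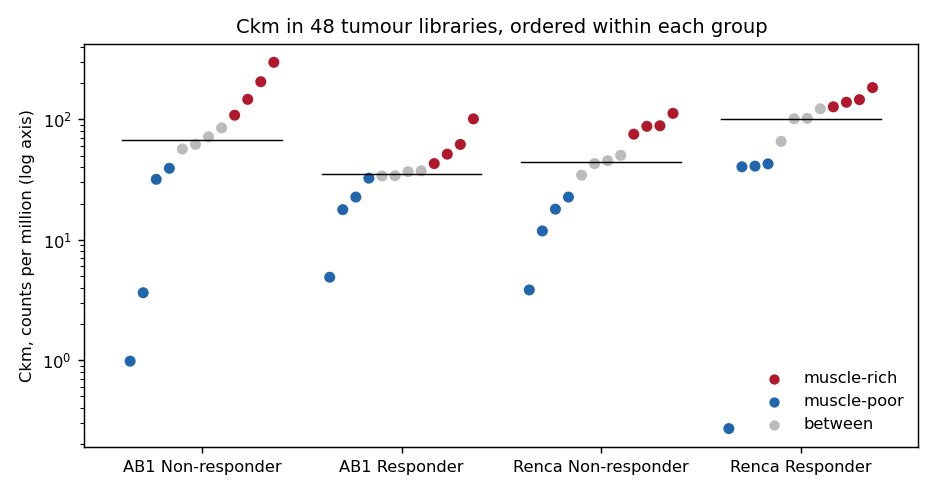
Ckm in CPM on a log axis for the 12 libraries of each group, ordered from low to high, with the median of each group as a line. Red points are the 4 muscle-rich libraries, blue the 4 muscle-poor ones and grey those between. The lowest point is Renca Responder replicate 11 at 0.270 CPM and the highest AB1 Non-responder replicate 3 at 298 CPM.

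Genes of the fibre and energy lists took a small part of every library. The fast and slow sarcomere, calcium and energy lists, Ckm included, took 0.231% to 0.668% of the counts in muscle-rich libraries (median 0.453%). In muscle-poor libraries they took 0.121% to 0.283% (median 0.206%). Renca Responder replicate 11, with 5 Ckm counts, still held 0.121%. The slow sarcomere list summed to 550 CPM in AB1 Non-responder replicate 3, the library of highest Ckm. It summed to 693 CPM in muscle-poor AB1 Responder replicate 1. Tpm1 and Tpm3 of these lists had a Pearson r with Ckm of 0.33 and -0.19 (48 libraries, group means subtracted). The share is thus not a measure of muscle RNA alone. With group as a term, 532 of 16694 genes (3.19%) differed between the classes at an adjusted p below 0.05 by edgeR's quasi-likelihood test with Benjamini-Hochberg adjustment. Of these, 500 were higher in muscle-rich libraries (3.0% of the genes tested) and 32 lower (0.192%). Without Ckm, which the rule used, 531 of 16693 genes were called and 499 were higher. DESeq2 called 599 higher and 142 lower. With log2(Ckm CPM + 1) as a number over all 48 libraries, 1340 of 17811 genes rose with Ckm and 976 fell by edgeR. By edgeR, 259 genes rose by at least 1 on the log2 scale (1.55%) and none fell by as much (0.0%), while the median log2 fold change over all genes was -0.0032.

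Libraries of a tumour with the same replicate number shared a sequencing lane, but some lanes held several numbers. A block by replicate number is therefore not a block by lane, and a block by lane was not fitted. With replicate number as a block, 1 gene was called in place of 532, the pseudogene Rpl30-ps10, named after its value was seen. That fit left 9 residual degrees of freedom against 27, as it held 20 blocks among 32 libraries. Only 3 of these blocks held libraries of both classes.

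Muscle genes come from the same fibres as Ckm, so their differences describe what came with Ckm and are not independent support for the classes. Of the fast sarcomere list, 20 of 22 tested genes were higher and none was lower, with a median log2 fold change of 1.98. Acta1, the actin of the thin filament, ran from 35.1 to 283 CPM in muscle-poor libraries (median 148) and from 185 to 748 CPM in muscle-rich ones (median 515). Its classes did not overlap in 3 of the 4 groups, and in AB1 responders the lowest muscle-rich library was below 2 muscle-poor ones. The difference was 1.77 ± 0.26 (log2 ± SE, 16 libraries per class, edgeR adjusted p = 5.53e-05). Renca Responder replicate 11, almost without Ckm, held Acta1 at 35.1 CPM.

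The fast myosins lie side by side on chromosome 11 (GRCm38), Myh2 at 67171027 to 67197517, Myh1 at 67200052 to 67224575 and Myh4 at 67238029 to 67260446. They are close copies, and how the authors' counting divided shared reads is not known. Myh4, the myosin of the fastest fibres, ran from 0.108 to 157 CPM in muscle-poor libraries (median 65.8) and from 152 to 1092 CPM in muscle-rich ones (median 276). Within every group all 4 muscle-rich libraries were above all 4 muscle-poor ones, and the difference was 2.41 ± 0.48 (edgeR adjusted p = 0.00182). Myh1 and Myh2 rose by 1.98 ± 0.47 and 1.81 ± 0.46. Titin (Ttn) and nebulin (Neb), the giant scaffolds of the sarcomere, rose by 1.92 and 1.68. Xirp2 (1.48, edgeR adjusted p = 0.0636) and Tpm1 (0.22, adjusted p = 0.159) did not pass the test.

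Of the calcium handling genes, 15 of 16 were higher, with a median of 1.91. Pvalb, the parvalbumin that takes up calcium as fast fibres relax, ran from 0 to 12.0 CPM in muscle-poor libraries (median 3.31) and from 7.03 to 65.8 CPM in muscle-rich ones (median 21). The classes did not overlap in any group, and the difference was 2.73 ± 0.41 (edgeR adjusted p = 5.47e-05). Atp2a1, the calcium pump of fast fibres, rose by 2.38 ± 0.41 and Ryr1, the calcium release channel, by 1.86 ± 0.33. Jph2 (0.37, edgeR adjusted p = 0.116) did not pass.

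Of the energy supply genes other than Ckm, 12 of 13 were higher, with a median of 1.53. Ckmt2, the mitochondrial creatine kinase of muscle, ran from 0 to 2.69 CPM in muscle-poor and from 1.36 to 11.4 CPM in muscle-rich libraries and rose by 2.62 ± 0.36 (edgeR adjusted p = 2.66e-05). Pygm, which breaks down glycogen, rose by 2.37 and Slc2a4, the insulin-dependent glucose transporter, by 1.53. Of 18 respiratory chain subunits that most tissues use, none passed the test by edgeR or DESeq2, 1 had an unadjusted p below 0.05 by edgeR, and their median was -0.03.

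Of the slow fibre genes, 7 of 8 were higher, with a median of 1.51. Myh7, the slow myosin, was at most 0.757 CPM in muscle-poor libraries and had a median of 0.806 CPM in muscle-rich ones, with AB1 Non-responder replicate 2 highest at 21.4 CPM. Its rise was 2.01 ± 0.51 (edgeR adjusted p = 0.0193), and its classes were apart in 1 of 4 groups. Without that library 7 of 8 slow fibre genes were called, and without the lowest-Ckm library of each group 4 of 8 were.

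At the neuromuscular junction and the fibre membrane, 10 of 14 genes were higher (median 1.58). They included the receptor kinase Musk (1.96 ± 0.28) and the acetylcholine receptor subunits Chrna1 (1.10), Chrnd (1.86) and Chrng, the fetal subunit (1.89), while the adult subunit Chrne (0.64, edgeR adjusted p = 0.333) did not pass. Dystrophin (Dmd), which ties the cytoskeleton to the membrane, rose by 0.59 ± 0.07 (edgeR adjusted p = 3.96e-06), from a median of 8.17 to 11.3 CPM.

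Genes of muscle precursors and immature fibres were higher along with those of mature fibres. Of the myogenic factors and satellite cell genes, 6 of 8 were higher (median 1.60). Myod1, which starts the myogenic programme, ran from 0 to 0.438 CPM in muscle-poor and from 0.203 to 1.60 CPM in muscle-rich libraries, a rise of 2.15 ± 0.34 (edgeR adjusted p = 0.000124). Myog, which acts as precursors differentiate, rose by 1.95 ± 0.40 and the fusion protein Tmem8c by 2.35. Pax7, the marker of satellite cells, was too low to be tested, with 0 to 0.220 CPM in muscle-poor and 0.0424 to 0.696 CPM in muscle-rich libraries.

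The embryonic myosin Myh3, the perinatal myosin Myh8 and Xirp1 rose by 2.19 ± 0.38, 2.18 ± 0.43 and 2.31 ± 0.40. Myh8 reached 127 CPM in muscle-rich libraries (median 86.6) against at most 49.6 CPM in muscle-poor ones. The other 3 tested members of that list (Ncam1, Hmox1 and Lgals3), which other tissues also express, did not pass. Myh3 (67078300 to 67102291) and Myh8 (67277124 to 67308634) lie on chromosome 11 near the adult fast myosins. How reads shared with those myosins were divided is not known, so their separate values are uncertain. Myh8 had a Pearson r of 0.969 with Ckm. Of 8 atrophy genes, Mstn, the myostatin that limits muscle growth, rose by 2.44 ± 0.39. Trim63, a ubiquitin ligase of wasting muscle, differed by 1.05 ± 0.33 without passing (edgeR adjusted p = 0.0804), and its classes overlapped in 2 of 4 groups.

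The cardiac list shares genes with skeletal muscle, and 3 of 7 were higher: Actc1, which immature skeletal fibres also make, the light chain Myl4, and Myh6, which lies next to Myh7. The atrial markers Nppa and Myl7 were at or near 0 and were not tested. Of 7 smooth muscle genes, Synpo2, which striated muscle also makes, was higher. Actg2 differed the other way, by -0.53 ± 0.16, without passing (edgeR adjusted p = 0.0585). Lmod1 (0.31, edgeR adjusted p = 0.320) and Tagln (0.08, edgeR adjusted p = 0.806) were not called. DESeq2 called 1 gene of this list higher and 1 lower.

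**Figure D2:**
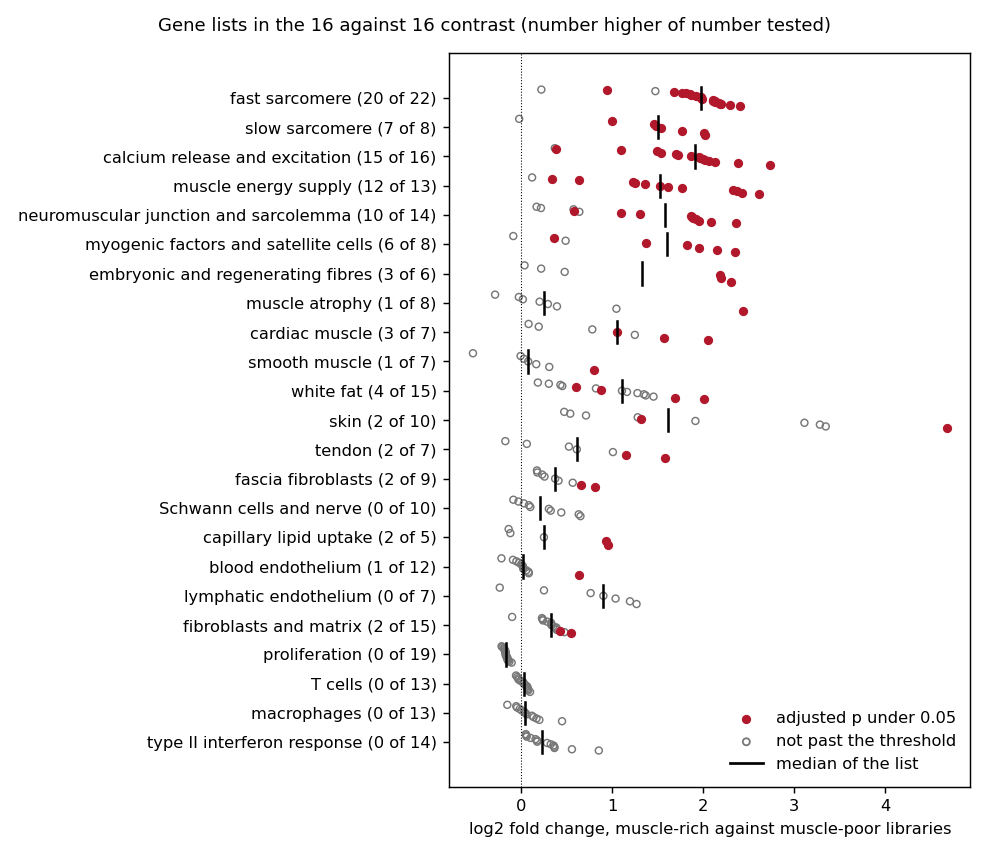
Log2 fold change of muscle-rich against muscle-poor libraries for each tested member of 23 gene lists, without Ckm, over 32 libraries. Filled red points had an adjusted p below 0.05, open points did not, and black bars mark list medians. The first 7 lists, all of muscle, have medians of 1.33 to 1.98, and those of T cells and macrophages lie near 0.

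The genes whose levels over all 48 libraries were most like those of Ckm, once group means were subtracted, were Atp2a1 (Pearson r = 0.993), Tnnt3 (0.989), Tnni2 (0.988), Myh4 (0.988), Mybpc2 (0.987), Pygm (0.984), Eef1a2 (0.980), Myl1 (0.976), Actn3 (0.971) and Ttn (0.971). These r describe log2(CPM + 1) in libraries that share their depth and scaling. Eef1a2, a translation factor of muscle and nerve, was in none of the lists. Of the 16693 other genes tested, 75 had an r of at least 0.9 and 226 of at least 0.7. The classes did not overlap in any of the 4 groups for 46 genes higher in muscle-rich libraries (0.276% of those tested) and for no gene lower (0.0%). Ckm is among the 46 by its choice, and 10 of the 46 were in the fast sarcomere list.

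Outside the muscle lists, the largest rises were of hair and skin genes and rested on few libraries. Krt34, Krt33b, Krt33a and Krt31, hair keratins encoded together on chromosome 11 (GRCm38, 100011195 to 100050551), differed by 6.87 ± 1.59, 6.81 ± 1.59, 6.72 ± 1.60 and 6.44 ± 1.57 (edgeR adjusted p from 0.00895 to 0.0137). Krt34 was 676 CPM in AB1 Non-responder replicate 3, 30.1 CPM in AB1 Responder replicate 3 and 1.26 CPM in Renca Responder replicate 3, and the median of the 16 muscle-rich libraries was 0. These keratins are similar in sequence, so their separate values are uncertain. Without AB1 Non-responder replicate 3, Krt34 differed by 1.91 ± 1.54 (edgeR adjusted p = 0.651) and was not called, nor were Krt33b, Krt33a, Krt31, Krtap11-1, Pkp1, Prr9 and Krt5.

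Krt5, the keratin of basal skin cells, was 213 CPM in AB1 Non-responder replicate 3, 21.3 CPM in AB1 Responder replicate 3 and 5.96 CPM in Renca Non-responder replicate 7. It was at most 1.43 CPM in the other muscle-rich libraries and 1.11 CPM in the muscle-poor ones. Its difference was 4.67 ± 1.34 (edgeR adjusted p = 0.0487). Without those 3 libraries, a choice made after seeing the data, Krt5 differed by 0.07 ± 0.79, 0 of 10 skin genes were called in place of 2, and 436 genes in place of 532. A library high in Krt5 between the classes, Renca Non-responder replicate 12, was left out as well but is not in the contrast. With 1 library left out at a time, 1 to 5 skin genes were called, the most without AB1 Non-responder replicate 11. The fast sarcomere count was 20 of 22 with and without the keratin libraries. Trp63, the skin gene of smallest p and the other one called, rose by 1.32 ± 0.30 (edgeR adjusted p = 0.00634). Its means were 4.30 CPM in muscle-rich and 1.70 CPM in muscle-poor libraries. Without AB1 Non-responder replicate 3 alone, 1 of 10 skin genes was called.

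**Figure D3:**
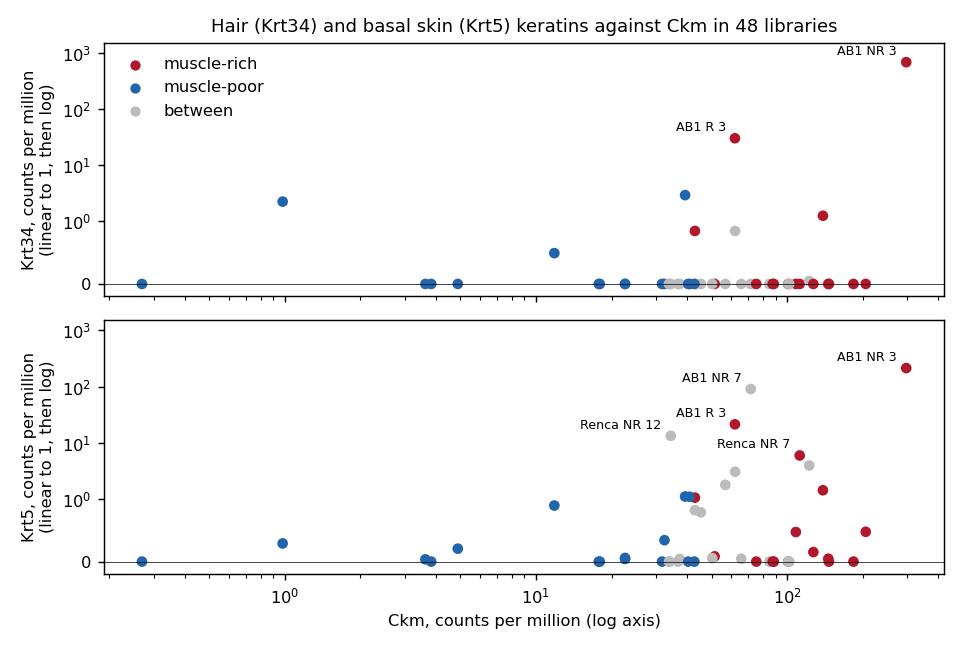
Krt34 (top) and Krt5 (bottom) in CPM, on an axis that is linear up to 1 and logarithmic above, against Ckm on a log axis in all 48 libraries. Points above 5 CPM carry their group and replicate (NR, non-responder; R, responder). Most libraries are near 0, and the muscle-rich AB1 NR 3 is highest in both at 676 and 213 CPM.

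The other rises named outside the lists were of genes known from muscle, apart from a pseudogene. Hhatl, a membrane protein of striated muscle, was 0 to 1.23 CPM in muscle-poor and 1.13 to 7.80 CPM in muscle-rich libraries, without overlap within any group, and rose by 2.61 ± 0.31 (edgeR adjusted p = 3.96e-06). Klhl31 rose by 2.44 ± 0.35 and Art1, which modifies proteins at the fibre surface, by 2.35 ± 0.34. Rpl31-ps9 was 3.74 ± 0.95 higher, with a median of 0.877 and a highest value of 70.5 CPM among muscle-rich libraries, and as a ribosomal pseudogene it is uncertain. In all, 74 of the 499 higher genes other than Ckm belonged to the muscle lists and 406 to no list.

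Of the tissues that lie beside muscle, fat had some genes higher in muscle-rich libraries. In the white fat list 15 of 15 genes had positive log2 fold changes (median 1.11), 12 had an unadjusted p below 0.05 by edgeR, and DESeq2 called 6. By edgeR 4 were higher after adjustment, or 3 to 6 with 1 library left out at a time and 8 of 16 with 6 libraries per class and group: Lep (2.01 ± 0.51), Car3 (1.69 ± 0.41), Fabp4 (0.88 ± 0.13) and Lpl (0.61). Car3, Fabp4 and Lpl are also made by muscle fibres or capillaries. Adipoq, the hormone that defines fat cells, ran from 0 to 13.5 CPM in muscle-poor and from 0.874 to 41.5 CPM in muscle-rich libraries, and its difference of 1.37 ± 0.48 did not pass (edgeR adjusted p = 0.135). In AB1 the summed level of the fat list was 144 to 415 CPM in muscle-poor and 296 to 1070 CPM in muscle-rich libraries. In Renca it was 601 to 958 CPM in muscle-poor and 699 to 1212 CPM in muscle-rich libraries, which overlapped widely. The part of the fat list in other results was not tested. Without the keratin libraries, or with the RNA purity ratios as covariates, 1 fat gene was called.

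Cd36, the fatty acid carrier of muscle, fat and capillaries, was 19.1, 23.1, 23.3 and 25.1 CPM in the muscle-poor and 47.5, 49.7, 50.7 and 54.8 CPM in the muscle-rich libraries of Renca non-responders. The classes were apart in 3 of 4 groups and overlapped in AB1 responders, and the difference was 0.93 ± 0.11 (edgeR adjusted p = 3.22e-06). Rbp7, a retinol carrier, rose by 0.96 ± 0.22. Of 12 blood vessel genes, Vwf (0.63, edgeR adjusted p = 0.0482) was called and Pecam1 (0.03) and Cdh5 (-0.09) were not. The count of that list fell to 0 when any of 20 of the 32 libraries was left out. Of 7 genes of lymph vessels none was called by edgeR or DESeq2, but 6 had positive differences with an unadjusted p below 0.05 by edgeR, and the median was 0.91. Mmrn1, a matrix protein of these vessels, differed by 1.27 ± 0.41 (edgeR adjusted p = 0.0927) and Prox1, their defining transcription factor, by 0.77 ± 0.25 (edgeR adjusted p = 0.0994). Without AB1 Responder replicate 2 or 6, or AB1 Non-responder replicate 6, 1 of the 7 was called.

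Tendon and connective tissue genes were higher in part. Thbs4, a matrix protein of tendon and muscle attachment, rose by 1.58 ± 0.27 and Cilp by 1.16 ± 0.24, 2 of 7 tendon genes, whereas Tnmd, the tendon marker, differed by 1.01 ± 0.43 without passing (edgeR adjusted p = 0.254). Of 15 fibroblast and matrix genes, Postn (0.55 ± 0.13) and Col3a1 (0.43 ± 0.12) were higher, and Col3a1 went from a median of 7558 to 11322 CPM. The list had positive differences in 14 of 15 genes, a median of 0.34, and 12 genes with an unadjusted p below 0.05 by edgeR, while DESeq2 called 4. Its count rested on single libraries, with 11 genes called without Renca Responder replicate 2, and 4 without AB1 Responder replicate 2 or 6 or Renca Responder replicate 8. It was 1 without AB1 Responder replicate 1 or 12, AB1 Non-responder replicate 5 or 6, Renca Responder replicate 9 or 11, or Renca Non-responder replicate 1, 4, 5 or 9. Without the lowest-Ckm library of each group, added after seeing the data, 0 of 15 matrix genes were called, and 347 genes in all. None of 10 Schwann cell genes passed the test by edgeR or DESeq2, and 3 had an unadjusted p below 0.05 by edgeR.

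Of 89 genes on the immune lists none was called by edgeR or DESeq2, and 3 had an unadjusted p below 0.05 by edgeR. T cell genes had a median of 0.03 and macrophage genes of 0.05. All tested members had positive differences in the lists of mast cells (8 genes, median 0.45), type II interferon response (14, 0.23), NK and cytotoxic cells (10, 0.15) and type I interferon response (17, 0.07), none of them called by either tool. Cd8a, the receptor of cytotoxic T cells, had medians of 20.4 CPM in muscle-rich and 20.8 CPM in muscle-poor libraries and a difference of -0.03 ± 0.26, with a 95% interval from -0.53 to 0.47. The interval of Pdcd1, which encodes PD-1, was -0.48 to 0.40, and that of the interferon-induced chemokine Cxcl9 was -0.11 to 1.23. The intervals of Cd8a and Cxcl9 include a rise as large as that of Col3a1 (0.43). That of Pdcd1 ends below such a rise but includes a fall of that size.

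Cell division genes had negative fold changes in 19 of 19 cases without passing the test by edgeR or DESeq2, with a median of -0.17, and 4 had an unadjusted p below 0.05 by edgeR. Mki67, made by dividing cells, was 234 to 611 CPM in muscle-poor and 177 to 530 CPM in muscle-rich libraries, a difference of -0.21 ± 0.10 (edgeR adjusted p = 0.305). In AB1 non-responders the summed level of the list was 2895 to 3379 CPM in muscle-poor and 1131 to 2780 CPM in muscle-rich libraries, without overlap. In AB1 responders the medians lay the other way, at 1801 CPM in muscle-poor and 2247 CPM in muscle-rich libraries. In Renca non-responders the sums were 2329 to 2820 CPM in muscle-poor and 2126 to 2469 CPM in muscle-rich libraries. Those of Renca responders were 2127 to 2538 CPM and 1713 to 2197 CPM. The Pearson r of the 19 genes with Ckm ran from -0.56 (Pcna) to -0.41 (Plk1), over 48 libraries with group means subtracted.

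The 32 genes that fell had log2 fold changes of -0.92 to -0.08, with a median of -0.14. The 5 that fell by more than Myo10 have Gm or Rik symbols, which the naming rule leaves out. Myo10, a motor of cell protrusions, fell by 0.25 ± 0.07 from a median of 168 to 142 CPM (edgeR adjusted p = 0.0423), and its classes were apart in 2 of 4 groups. Slc25a13, a mitochondrial carrier, fell by 0.21, and Rad50, a DNA repair protein, and Usp37, a deubiquitinase, each fell by 0.16.

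**Figure D4:**
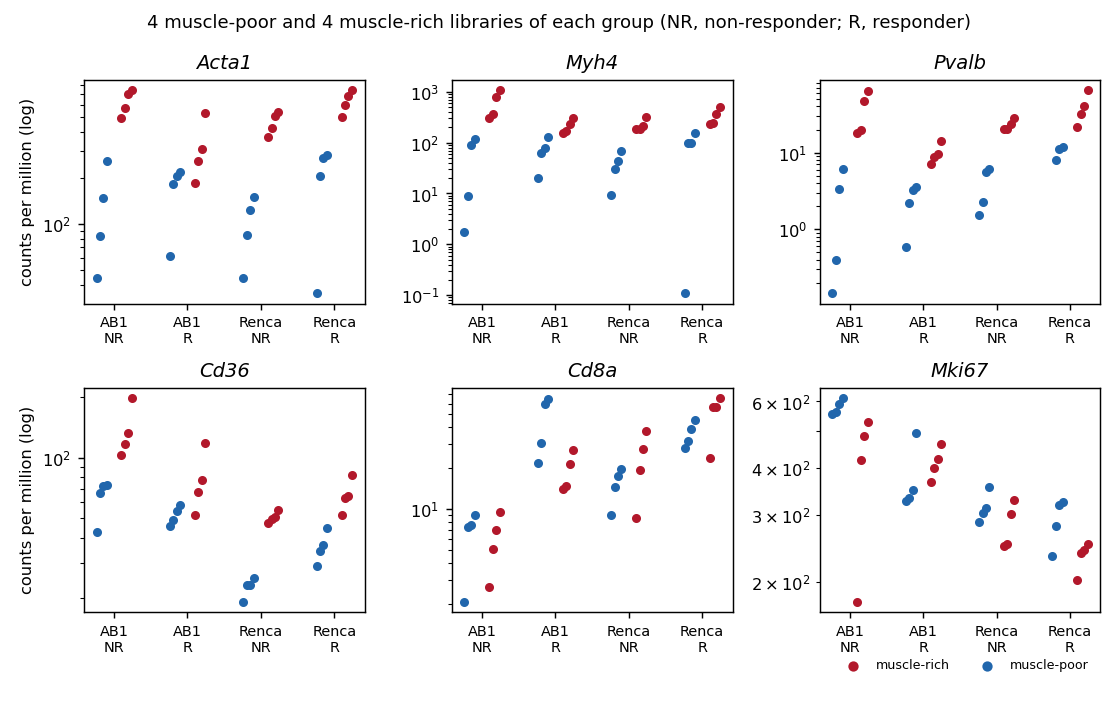
CPM on log axes of Acta1, Myh4, Pvalb, Cd36, Cd8a and Mki67 in the 4 muscle-poor (blue) and 4 muscle-rich (red) libraries of each group; the Pvalb value of 0 in Renca Responder replicate 11 is not drawn. Red lies above blue in all 4 groups for Myh4 and Pvalb and in 3 for Acta1 and Cd36, the colours of Cd8a overlap in every group, and those of Mki67 overlap except in AB1 non-responders.

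The contrast was next compared between the tumours, by the interaction of class with tumour. Of 16834 genes, 29 (0.172%) differed by edgeR's quasi-likelihood test at an adjusted p below 0.05, 26 with a larger value in AB1 and 3 with a larger value in Renca. Prkaa2, the AMP-activated kinase subunit that is abundant in muscle, was 1.22 to 2.67 CPM in muscle-poor and 2.20 to 7.45 CPM in muscle-rich AB1 libraries. In Renca it was 25.2 to 38.8 CPM in muscle-poor and 23.0 to 34.8 CPM in muscle-rich libraries. Its class difference was 1.4 in AB1 and -0.09 in Renca, a difference of -1.49 ± 0.18 (Renca minus AB1, 8 libraries per class and tumour, edgeR adjusted p = 5.74e-05).

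The other genes named with a larger value in AB1 showed the same order of levels. Rbm20, a splicing factor of striated muscle, had medians of 0.363 and 1.32 CPM in muscle-poor and muscle-rich AB1 libraries and of 35.7 and 30.9 CPM in those of Renca, with a difference of contrasts of -2.0 ± 0.35 (edgeR adjusted p = 0.00841). Cystm1, Cnksr1 and Fam179a had differences of -1.0 ± 0.15, -1.81 ± 0.30 and -3.05 ± 0.42. For these 5 genes every muscle-poor Renca library was above every muscle-poor AB1 library.

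For the 3 genes with a larger value in Renca, every muscle-poor AB1 library was above every muscle-poor Renca library. Kcnq5, a potassium channel subunit of muscle and nerve, had medians of 0.422 and 1.27 CPM in muscle-poor and muscle-rich Renca libraries and of 4.76 and 5.61 CPM in AB1, a difference of contrasts of 1.36 ± 0.23 (edgeR adjusted p = 0.00739). Frzb, a secreted Wnt antagonist, went from 0.283 to 1.27 CPM in Renca and from 1.13 to 1.06 CPM in AB1 (2.28 ± 0.40). Ank1, an ankyrin with muscle forms, went from 1.91 to 4.96 CPM and from 6.28 to 7.92 CPM (1.22 ± 0.22).

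**Figure D5:**
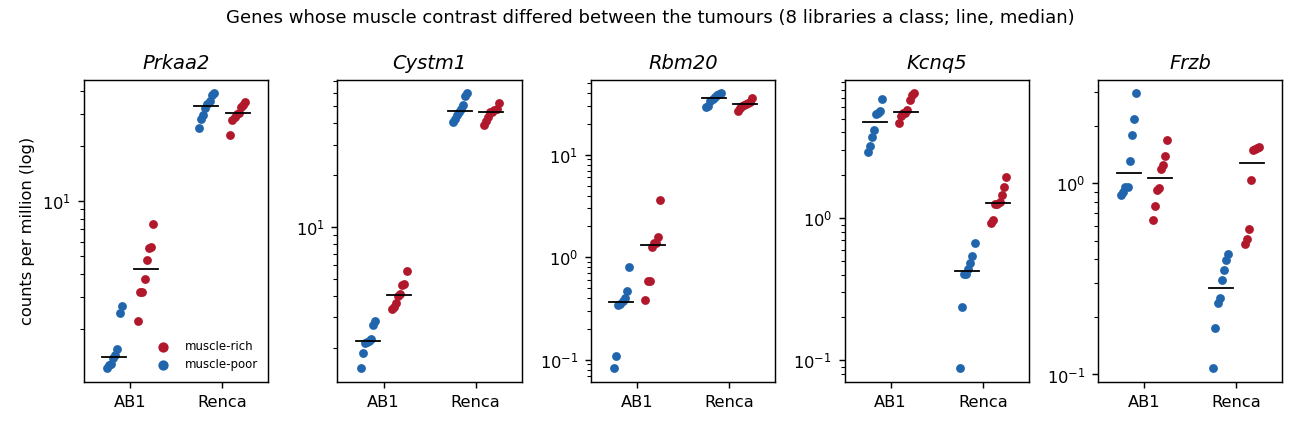
CPM on log axes of 5 genes whose class difference differed between AB1 and Renca, in 8 muscle-poor (blue) and 8 muscle-rich (red) libraries per tumour, with medians as lines. Prkaa2, Cystm1 and Rbm20 have higher red than blue medians in AB1 and lie in a higher band in Renca, while Kcnq5 and Frzb separate in Renca.

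Fitted alone, the 16 Renca libraries gave 352 calls and the 16 AB1 libraries 27. In AB1 alone 0 of 22 fast sarcomere genes passed although their median was 1.88, against 18 of 22 and a median of 2.08 in Renca alone. Acta1 rose by 1.94 ± 0.33 in Renca (edgeR adjusted p = 0.00277) and had a difference of 1.60 ± 0.39 in AB1 (edgeR adjusted p = 0.0920). Between responders and non-responders no gene had a different contrast by edgeR (0 of 16834, 0.0%), where 1489 genes had an unadjusted p below 0.05 and DESeq2 called 2, Igsf9b (-1.33 ± 0.28, DESeq2 adjusted p = 0.0174) and the pseudogene Rps19-ps6.

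Because the classes were set within groups, the level of Ckm itself could be compared by response. In AB1, log2(Ckm CPM + 1) was 5.08 ± 1.01 (SD) in the 12 responders and 5.66 ± 2.12 in the 12 non-responders, a difference of -0.58 (two-sided permutation p = 0.410, adjusted over 2 tumours 0.410), and 1 of 12 responders was above the median of the non-responders. In Renca it was 5.98 ± 1.93 and 5.22 ± 1.34, a difference of 0.76 (two-sided permutation p = 0.285, adjusted 0.410), and 8 of 12 responders were above that median. By edgeR with flow cell in the fit, Ckm differed by -1.12 ± 0.56 in AB1 responders against non-responders (edgeR adjusted p = 0.0914). The same fit in Renca gave 0.94 ± 0.49 (edgeR adjusted p = 0.182). The muscle lists had median differences of -0.62 in AB1 and 0.56 in Renca. Neither test called a difference in Ckm with 12 libraries a group.

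With flow cell and response in the fit, 707 of 15859 genes in AB1 (4.46%) and 1052 of 15778 in Renca (6.67%) followed log2(Ckm CPM + 1) by edgeR. In AB1, 9577 genes differed by response (60.4%) without Ckm in the fit and 9752 (61.5%) with it, and 9341 were called in both. In Renca, 3095 genes differed (19.6%) without it and 2481 (15.7%) with it, of which 2398 were called in both, 697 were lost and 83 gained. With replicate number as a block the Renca counts were 2757 without and 1802 with Ckm. No gene called in both fits changed its direction in either tumour. Of the muscle lists in AB1, 5 of 95 genes were higher and 18 lower in responders without Ckm in the fit, and 22 were higher and 14 lower with it, while in Renca 3 of 94 were higher and 4 lower without it and 2 and 4 with it.

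The classes did not differ detectably in total counts (adjusted permutation p = 0.991). The share of counts taken by the 10 most abundant genes was 0.418 percentage points higher in muscle-rich libraries, with medians of 6.38% and 5.91% (two-sided permutation p = 0.0655, adjusted over 4 measures 0.101). RNA 260/280 was lower by 0.0219 in muscle-rich libraries (adjusted permutation p = 0.101), and RNA 260/230 was 1.95 ± 0.311 in muscle-rich and 2.13 ± 0.113 in muscle-poor libraries (SD, n = 16 each, two-sided permutation p = 0.0201, adjusted over 4 measures 0.0803). With both ratios as covariates 372 genes were called and the fast sarcomere count was 19 of 22.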

How the data were processed

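RNA of 48 whole mouse tumours was sequenced, and the authors deposited a table of unnormalised read counts of 39637 genes. HISAT2 2.0.4, StringTie 1.3.0 and bcl2fastq 2.18.0.12 are listed, with human builds, per the submitters' processing notes. Which tool counted the reads, on which mouse build and with which strand setting, is not stated there. Coordinates are from GENCODE M21 (GRCm38) and promoters from RefSeq.

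For the comparison of the classes, edgeR 4.0.16 was run under R 4.3.3 (TMM, filterByExpr, quasi-likelihood F test, Benjamini-Hochberg at 0.05), with the 4 groups as a term, after tests on simulated data. DESeq2 1.42.0 was an alternative. SE is the log2 fold change divided by the square root of F, and intervals are normal ones from it. Permutation tests used 100000 resamples.

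Members, lists and tests were chosen with earlier results of these data known. Named genes were the 12 largest rises and 12 largest falls whose mean log2 CPM reached 1, the 12 largest rises outside the muscle lists, the 3 of smallest p per list, a set panel and the 5 of smallest p in each direction of each interaction, with Gm, Rik and antigen receptor symbols left out. Other members of the lists are named as examples chosen after their values were seen.

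Responders and non-responders of a tumour with the same number shared a lane in 24 of 24 pairs per the labels. Their deviations from group means correlated from -0.158 to 0.572, over 0.1 in 10 pairs.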

Additional observations from a re-analysis of the deposited data

Results flagged for a closer look

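Of 69 sets of 4 libraries (a class within a group), 13 had a library far from the other 3. Chance marks about 1 in 20 sets of independent normal values, a rate that does not hold here, since the sets share libraries, are skewed and were picked by the rank of Ckm. Ckm was 0.270 CPM in the muscle-poor Renca Responder replicate 11, in a set with a median of 40.6 CPM. Myh7 was 21.4 CPM in the muscle-rich AB1 Non-responder replicate 2 (median of its set 1.43 CPM) and 1.36 CPM in the muscle-rich Renca Non-responder replicate 7 (0.402 CPM).

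Keratins made up the other 10. Krt34 was high in the muscle-rich AB1 Non-responder replicate 3 at 676 CPM, AB1 Responder replicate 3 at 30.1 CPM and Renca Responder replicate 3 at 1.26 CPM, and in the muscle-poor Renca Non-responder replicate 1 at 0.493 CPM. Krt5 was high in the same 4 libraries, at 213, 21.3, 1.43 and 0.896 CPM, and in the muscle-rich Renca Non-responder replicate 7 at 5.96 CPM and the muscle-poor Renca Responder replicate 2 at 1.10 CPM. In libraries between the classes, which the contrast does not use, Krt5 reached 90.1 CPM in AB1 Non-responder replicate 7 and 13.3 CPM in Renca Non-responder replicate 12.

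The contrast differed between the tumours (Renca minus AB1, log2) by 1.36 for Kcnq5, 2.28 for Frzb and 1.22 for Ank1, and by -1.49 for Prkaa2, -3.05 for Fam179a, -1.0 for Cystm1, -1.81 for Cnksr1 and -2.0 for Rbm20, each past the threshold of edgeR's interaction test.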

How the results depend on the processing

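The count of 532 genes stayed within 1.5 times under DESeq2, no TMM, scaling without the muscle lists, no filter, 3 or 6 libraries per class and group, classes by Acta1, flow cell or RNA purity as terms, and without the keratin or slow fibre libraries. The genes called changed more than the count. Of the 532, from 327 (RNA purity) to 529 (scaling without the muscle lists) were called again under these settings. The number was 373 with 3 libraries per class and group, 378 with 6 and 415 with classes by Acta1. The count was 2316 with log2 Ckm as a number over 48 libraries, of which 1340 rose with Ckm and 976 fell. It was 1 with the replicate block, 27 in AB1 alone, 352 in Renca alone and 347 without the lowest-Ckm library of each group. Leaving out 1 library at a time gave 446 (without AB1 Non-responder replicate 5) to 681 (without Renca Responder replicate 2). The fits on 1 tumour and the block have fewer residual degrees of freedom than the main fit. The AB1 and Renca fits used equal numbers of libraries. The cause of these shifts was not tested.

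The 29 genes that differed between the tumours were 116 with DESeq2, 19 with no filter, 341 with log2 Ckm as a number, and 19 (without AB1 Non-responder replicate 5) to 73 (without AB1 Non-responder replicate 11) with 1 library left out. The 0 genes that differed by response were 2 with DESeq2, 11 with log2 Ckm as a number, 0 to 1 with 1 library left out and 0 with the replicate block. The Renca response count of 3095 was 1802 with the replicate block and Ckm together. The block gave negative differences for Krt34 (-2.41), Krt33b (-2.36), Krt33a (-2.29), Krt31 (-2.05), Krtap11-1 (-1.67) and Trp63 (-0.37), and the purity ratios for Krtap11-1 (-0.034), none of them called. Ckm by response did not pass under a pseudocount of 0.1 or with the fast sarcomere mean in place of Ckm.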

Other observations

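The mix of adult myosins differed between the tumours. Counts were divided by exon length, and each myosin's share of the sum of 4 was taken in the 23 AB1 and 23 Renca libraries with at least 100 myosin counts, a comparison chosen after the values were seen. Myh4, of the fastest fibres, took 55.3 ± 11.5% in AB1 and 42.5 ± 8.93% in Renca (SD, n = 23 each, two-sided permutation p = 0.00018, adjusted over 4 myosins 0.00036). Myh1 took 28.2 ± 6.92% and 37.1 ± 5.66% (adjusted permutation p = 0.00016), Myh2 16.3 ± 5.02% and 20.2 ± 4.10% (0.00773), and Myh7 0.237 ± 0.286% and 0.103 ± 0.0775% (0.00896). The median share of Myh4 was 64.3% and 53.5% on the first and second flow cell of AB1, and 40.6% and 44.4% on those of Renca. Tumour, day of removal and flow cell cannot be told apart in this difference.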
